A study of Drosophila melanogaster with 12 samples.

Results

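The transcripts described here are those of pigs, Patronin, shot, futsch, msps, Eb1 and kuk, whose proteins act at the ends of microtubules, along them, or where they meet actin and the nucleus. They were chosen by gene symbol and known function, with the enrichment of each in both experiments already known. All 7 genes were found among the 15682 genes of the antibody experiment and the 17559 genes of the GFP-binder experiment. RNA was sequenced from the bound fraction of immunoprecipitates of Drosophila melanogaster embryos aged 1.5 to 3 h, a time that covers the cellular blastoderm. In the antibody experiment, lysates of wild-type embryos were incubated with an antibody to Slam (3 libraries) or with an antibody to Dia as the control (4 libraries). In the GFP-binder experiment, a single-chain GFP antibody was applied to lysates of embryos carrying a genomic GFP-slam transgene, with GFP at the N-terminus of Slam (2 libraries, numbered 1 and 3), or to lysates of wild-type embryos, labelled OrR, as the control (3 libraries). The sources used here do not say whether endogenous slam was present beside the transgene. Each lysate came from many embryos. The study's methods call the replicates biological, and the sources used here do not say what was separate between them, so p-values measure the spread between these libraries.

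Slam protein and slam mRNA lie at the furrow canal, the leading tip of the membrane that grows between the nuclei when the syncytial blastoderm forms cells. The control bait Dia belongs to the formins, a family of actin assembly factors. During cellularization, microtubules run from centrosomes above each nucleus down along the nucleus, with their plus ends toward the growing furrow. Microtubules are dynamic at both ends, and separate families of proteins protect the minus ends, track or extend the plus ends, stabilise the lattice, or tie the polymer to actin and to the nuclear envelope.

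Levels are given as CPM, the counts of a transcript relative to the total of its library, scaled between libraries by the trimmed mean of M-values (TMM), and ratios as log2 values fitted by edgeR with their standard error (SE). A CPM compares 1 transcript between libraries and not 1 gene with another, since longer transcripts collect more reads. Libraries held 4383704 to 31647090 counts in the antibody experiment and 20170936 to 47249817 counts in the GFP-binder experiment. The RNAs of the bait genes followed the labels. slam RNA had a log2 ratio of 6.29 (SE 0.767) for Slam over Dia antibody and 4.03 (SE 0.253) for GFP-slam over wild type. dia RNA had -3.45 (SE 0.545) for Slam over Dia antibody. These counts do not measure the bait proteins, of which the study detected Slam and GFP-slam by western blot. Of the 4 follicle cell markers, all were at 0 in both control groups, and their sum reached at most 0.0948 CPM in any library. The 5 markers of later embryos (elav, Mhc, repo, Syt1, nSyb) summed to 89.1 to 421 CPM with the Slam antibody and 92.4 to 1376 CPM in its control. With GFP-slam they summed to 25.5 to 225 CPM, against 52.4 to 173 CPM in the wild-type control. Mhc alone reached 369 CPM with the Slam antibody, 1351 CPM with the Dia antibody, 204 CPM with GFP-slam and 150 CPM in wild type.

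With the Slam antibody, 2 of the 7 transcripts passed the test as higher than with the Dia antibody (edgeR, adjusted p under 0.05), and they are pigs and Patronin. Over all 7466 genes tested, 6.84% passed as higher and 3.62% as lower, and the members were selected on this contrast, so their count is given as a description. The ratios of futsch and shot were also large, but their groups overlapped, and the log2 ratios of msps, Eb1 and kuk lay between -0.53 and 0.29. The groups did not overlap, with the Slam antibody higher, for 2 of the 7 transcripts and for 15.2% of all genes. The median log2 ratio over all genes tested was -0.03. No unbound or input library was analysed here, so a ratio compares 2 bound fractions. More RNA recovered with 1 bait cannot be told apart from less recovered with the other, or from a difference between the lysates.

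**Figure D1:**
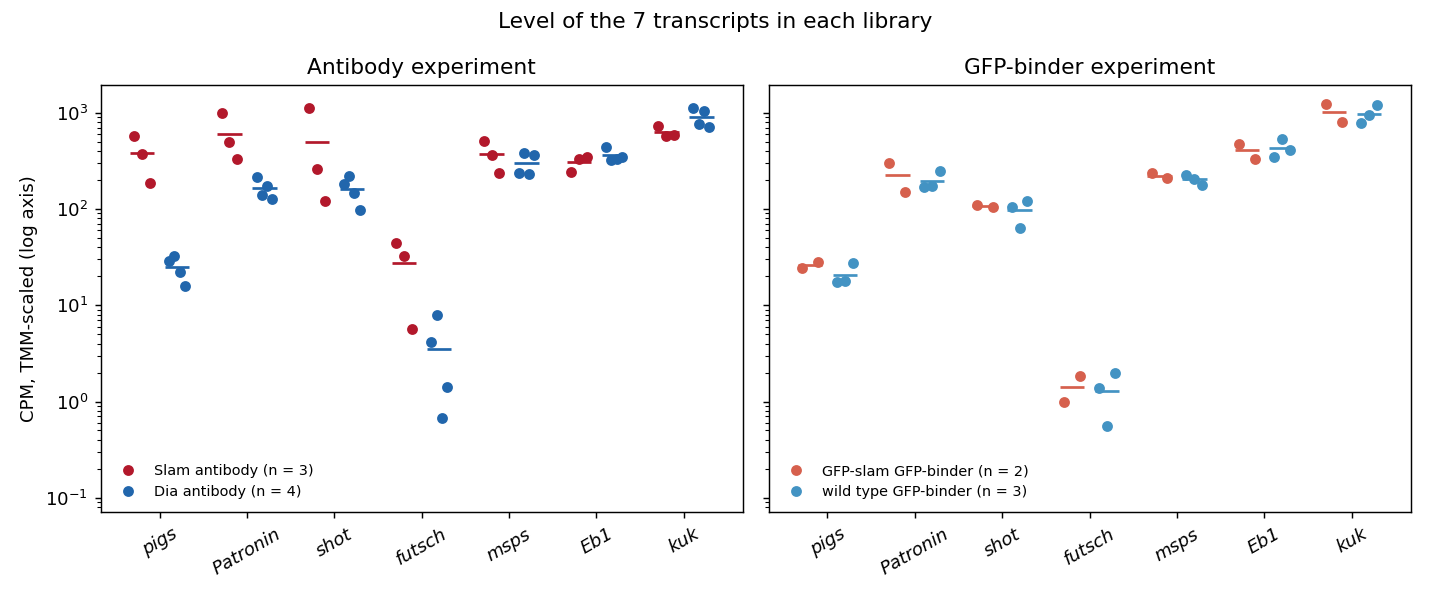
Level of each of the 7 transcripts in each of the 12 libraries (points, CPM on a log axis) with the group mean as a bar, in the antibody experiment (left) and the GFP-binder experiment (right). With the Slam antibody, pigs lay at 187 to 574 CPM, above all Dia antibody libraries at 15.9 to 32.2 CPM, whereas with the GFP-binder the groups overlapped for all 7 transcripts.

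The transcripts of the linker proteins differed in how far their libraries were spread. pigs encodes a protein of the Gas2 family, which joins actin filaments to microtubules, and its gene spans 53.0 kb of chromosome X (6600062 to 6653015, Release 6 of the genome). Its level with the Slam antibody was 574 CPM in replicate 1, 373 CPM in replicate 2 and 187 CPM in replicate 3. With the Dia antibody it was 28.7, 32.2, 22.3 and 15.9 CPM in replicates 1 to 4. Each Slam antibody library was thus well above each control library, and the lowest of them was still several times the highest control. The means were 378 ± 193 CPM (SD, n = 3) and 24.8 ± 7.22 CPM (SD, n = 4), a log2 ratio of 3.93 (SE 0.376), or 15.2-fold. By this ratio pigs ranked 72 of the 7466 genes. It passed the test in all alternatives run, with log2 ratios from 3.46 to 4.24.

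shot encodes a spectraplakin, a very large protein that binds actin and microtubules and can bind Eb1 at plus ends, from a gene of 77.9 kb on chromosome 2R (13864237 to 13942110). Its level was 1120 CPM in Slam antibody replicate 1, 260 CPM in replicate 2 and 120 CPM in replicate 3. The Dia antibody libraries ran from 98.7 CPM in replicate 4 to 221 CPM in replicate 2, with 182 CPM in replicate 1. Replicate 1 alone was far above the controls, replicate 2 was just above the highest of them, and replicate 3 fell inside their range. The log2 ratio of 1.63 (SE 0.726) did not pass, and it was 0.20 (SE 0.35) without Slam replicate 1 and 0.82 (SE 0.628) with the replicate number as a block. The mean with the Slam antibody was 500 ± 541 CPM (SD, n = 3), with an SD larger than the mean.

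Patronin binds and protects the minus ends of microtubules that are not held by a centrosome, and its gene lies on chromosome 2R (17519024 to 17535866, 16.8 kb). Its level with the Slam antibody was 992, 494 and 328 CPM in replicates 1 to 3. With the Dia antibody it was 217, 140, 173 and 128 CPM in replicates 1 to 4. The groups did not overlap, and replicate 1 was again the highest library. The means were 605 ± 345 CPM (SD, n = 3) and 164 ± 39.8 CPM (SD, n = 4), a log2 ratio of 1.88 (SE 0.342), or 3.68-fold, at rank 463. Patronin passed in all alternatives run, with its lowest log2 ratio, 1.29 (SE 0.268), without Slam replicate 1.

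futsch, the Drosophila relative of the vertebrate protein MAP1B, binds along microtubules and is best known from neurons, where it stabilises axonal and synaptic microtubules. Its gene spans 44.6 kb of chromosome X (1409069 to 1453686). It was detected at 44.0, 32.5 and 5.64 CPM with the Slam antibody, from 927, 1058 and 163 counts. With the Dia antibody it was at 4.12, 7.95, 0.668 and 1.40 CPM, from 59, 125, 3 and 30 counts. Slam replicates 1 and 2 lay above all controls, while replicate 3 lay below Dia antibody replicate 2. The log2 ratio was 2.90 (SE 0.861, rank 177) and did not pass. It passed with DESeq2 (2.94, SE 0.715), without Dia replicate 2 (3.51, SE 0.858) or Slam replicate 3 (3.36, SE 0.708), and with the replicate number as a block (2.77, SE 0.431). In these fits, in the same order, 10.3%, 4.99%, 4.24% and 10.5% of all genes passed as higher.

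Other transcripts of neurons were read beside futsch. elav, which encodes an RNA-binding protein of neurons, was at 32.5 to 40.5 CPM with Slam and 20.9 to 33.8 CPM with Dia as the bait, a log2 ratio of 0.44 that did not pass (edgeR, adjusted p = 0.212). The synaptic vesicle genes Syt1 and nSyb were at 1.63 to 7.55 CPM and 1.49 to 3.13 CPM with the Slam antibody, against 0.223 to 1.33 CPM and 0.628 to 2.23 CPM with the Dia antibody, below the minimum count of the test. The part of neuronal RNA in the ratio of futsch was not tested.

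The ratios of the 2 plus-end transcripts were within about 1 SE of 0. msps, a relative of XMAP215 that speeds growth at plus ends, is encoded on chromosome 3R (16050801 to 16060675). Its level was 512, 369 and 235 CPM in the Slam antibody libraries, against 239, 382, 231 and 365 CPM in those of Dia, a log2 ratio of 0.29 (SE 0.289). Only Slam replicate 1 was above the range of the controls. Eb1, which tracks growing plus ends and recruits other proteins there, is encoded on chromosome 2R (6749227 to 6756300). Slam antibody libraries held 244, 335 and 344 CPM, and Dia antibody libraries 440, 322, 335 and 348 CPM, a log2 ratio of -0.23 (SE 0.214). Here Slam replicate 1 was the lowest library of the experiment and Dia replicate 1 the highest.

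kuk encodes a protein of the inner nuclear membrane that is needed for nuclei to elongate during cellularization, on chromosome 3R (17080244 to 17084781). Its level was 727, 574 and 584 CPM in the Slam antibody libraries, and it was 1119, 760, 1041 and 718 CPM in the control. The groups met at their edges, where Slam replicate 1 lay just above Dia replicate 4. The log2 ratio was -0.53 (SE 0.225), or 1.45-fold lower, which did not pass. With the replicate number as a block it was -0.62 (SE 0.186), which passed, so that 1 of the 7 transcripts then passed as lower, as did 8.52% of all genes in the blocked fit, in place of 0 (edgeR without the block, where kuk alone had an unadjusted p under 0.05 in this direction, and 0 by DESeq2).

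**Figure D2:**
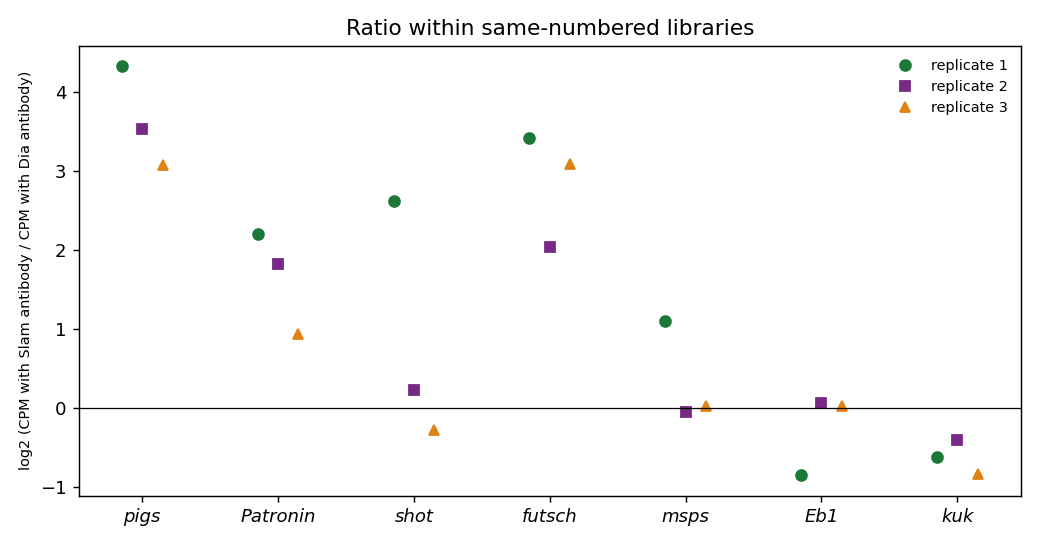
Log2 ratio of CPM with the Slam antibody to CPM with the Dia antibody within each same-numbered pair of libraries (3 pairs, 1 symbol each), for the 7 transcripts. pigs, Patronin and futsch lay above 0 and kuk below 0 in all 3 pairs, and shot spread from -0.28 to 2.62.

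Deviations from the group means correlated at 0.254, 0.391 and 0.151 between same-numbered libraries of the 2 antibodies. Slam replicate 3 correlated more with Dia replicate 4 (0.278) than with Dia replicate 3, and the labels do not say what a number marks. The ratios were also read within each number, as a description. pigs was 20-fold higher in pair 1, 11.6-fold in pair 2 and 8.40-fold in pair 3. Patronin was 4.58-fold, 3.53-fold and 1.90-fold higher. The ratios of futsch were 10.7, 4.08 and 8.45, and the last rests on 3 control counts, with a 95% counting interval of 2.84 to 41.4 (exact Clopper-Pearson, counting error only). These 3 transcripts had a ratio above 1 in each pair, as did 29.8% of all genes tested. The ratios of kuk were 0.650, 0.754 and 0.561, below 1 in each pair, as for 25.6% of all genes. shot had ratios of 6.17, 1.18 and 0.823, so its pairs did not share a direction.

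Slam antibody replicate 1 was the highest of the 3 Slam antibody libraries for 6 of the 7 transcripts, against 34.0% of all genes tested. Replicate 3 was the lowest for 5 of them, against 30.5% of all genes. The ratio of replicate 1 to replicate 3 was 9.32 for shot, 7.79 for futsch, 3.07 for pigs, 3.02 for Patronin, 2.18 for msps, 1.24 for kuk and 0.710 for Eb1. Its median over all genes was 0.960, and 0.996 over the 511 genes that passed as higher. slam RNA itself was highest in replicate 1 and lowest in replicate 3, and ranged from 32099 to 119176 CPM. The part of this difference between libraries in the ratios was not tested, beyond the values without replicate 1 given above.

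The GFP-binder gave no such ratios. None of the 7 transcripts passed between GFP-slam and wild type in either direction (edgeR, where 0 had an unadjusted p under 0.05 or passed in DESeq2), while 0.525% of 8767 genes passed as higher and 0.228% as lower. The groups overlapped for all 7, while 8.98% of genes had groups that did not overlap with GFP-slam higher. The members' choice used this contrast too. pigs was at 24.3 and 28.5 CPM with GFP-slam and at 17.4, 17.7 and 27.4 CPM in wild type, a log2 ratio of 0.34 (SE 0.279). Its level with GFP-slam was thus near that of the Dia antibody libraries, although the experiments were scaled apart.

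Patronin was at 298 and 152 CPM with GFP-slam and at 168, 175 and 248 CPM in wild type, a log2 ratio of 0.19 (SE 0.341). The GFP-slam libraries lay at either end of the range, 1 above and 1 below all wild-type libraries. shot was at 110 and 104 CPM with GFP-slam and at 106, 63.8 and 122 CPM in wild type (log2 ratio 0.14, SE 0.298), with no library as high as Slam antibody replicate 1. futsch was at 1 and 1.85 CPM with GFP-slam and at 1.37, 0.553 and 1.96 CPM in wild type (log2 ratio 0.15, SE 0.72), and its wide SE leaves a change of several-fold undetectable at this depth. The log2 ratios of msps, Eb1 and kuk were 0.13 (SE 0.26), -0.07 (SE 0.309) and 0.05 (SE 0.312).

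The 7 ratios can be set side by side, since the experiments share no library. Whether a ratio differed between the experiments was fitted as an interaction term over all 12 libraries, in which 2.67% of 7334 genes passed as higher with the antibody and 0.654% as lower. Of the 7 transcripts, only pigs passed in this fit, with a difference of 3.60 (SE 0.546) on the log2 scale. The members were chosen with both ratios known, so a pass here is a description. The differences were 2.75 (SE 1.24) for futsch, 1.73 (SE 0.534) for Patronin and 1.50 (SE 0.966) for shot, and did not pass. Patronin passed with DESeq2 (1.75, SE 0.537) and without Slam replicate 3 (2.03, SE 0.485), and futsch with the replicate number as a block (3.04, SE 0.734). msps, Eb1 and kuk had 0.18 (SE 0.412), -0.13 (SE 0.34) and -0.55 (SE 0.353). The bait, the beads, the lysate genotype and the experiment changed together between the 2 settings and cannot be told apart. The kind of control changed with them, from another antibody on wild-type lysate to the same GFP-binder on wild-type lysate.

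**Figure D3:**
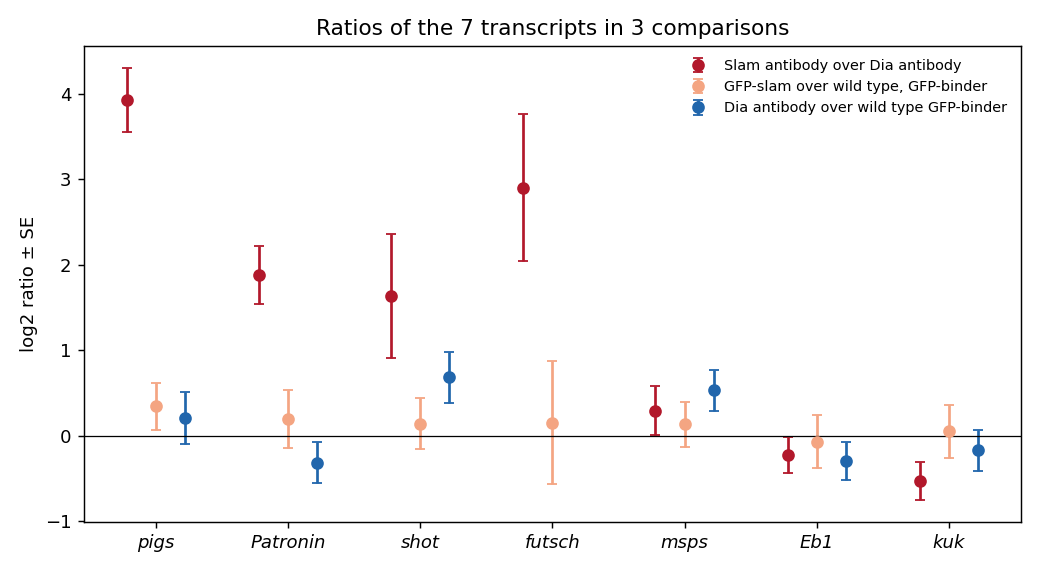
Log2 ratio with its SE (bars) of the 7 transcripts in 3 comparisons. pigs stood at 3.93 for Slam over Dia antibody and at 0.34 for GFP-slam over wild type, and the 2 controls differed by at most 0.68 for any of the 6 transcripts tested.

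The controls of the 2 experiments, both from wild-type embryos, were also compared. This contrast did not choose the members, although its libraries enter both contrasts that did. None of the 6 transcripts tested passed (edgeR, although 2 had an unadjusted p under 0.05, both higher, and DESeq2 passed 0), where 1.98% of 6868 genes passed as higher with the Dia antibody and 1.22% as lower. The 2 were shot, at a log2 ratio of 0.68 (adjusted p = 0.275), and msps, at 0.53 (adjusted p = 0.31). No share of all genes was computed at the unadjusted threshold. pigs was at 0.20 (adjusted p = 0.824), Patronin at -0.32 (adjusted p = 0.569), Eb1 at -0.30 (adjusted p = 0.565) and kuk at -0.17 (adjusted p = 0.8). The ranges of the 2 controls overlapped for all 6. futsch had a mean normalized count of 48.9 and fell below the minimum of 50.

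Other genes of microtubules and the nuclear lamina were read from a list of 41 genes, of which 31 were tested in the antibody experiment. LamC, which encodes a nuclear lamin, passed as higher with the Slam antibody, at 84.8, 92.4 and 48.8 CPM against 31.5, 36.5, 18.3 and 19.2 CPM. Its log2 ratio was 1.51 (SE 0.298, adjusted p = 0.0103, edgeR). In the group listed under lattice and stability, 3 genes passed as lower. Map60, which encodes a protein of centrosomes and microtubules, was at 142, 135 and 147 CPM against 409, 317, 317 and 224 CPM, and its log2 ratio was -1.17 (SE 0.231, adjusted p = 0.0103).

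Jupiter, which encodes a microtubule-binding protein, was at 191 ± 27.2 CPM (SD, n = 3) against 369 ± 59.7 CPM (SD, n = 4), a log2 ratio of -0.95 (SE 0.216, adjusted p = 0.0192). Mapmodulin was at 295 ± 41.0 CPM (SD, n = 3) against 509 ± 65.4 CPM (SD, n = 4), a log2 ratio of -0.79 (SE 0.206, adjusted p = 0.0326). Both calls were lost without Slam replicate 1 or 2, that of Mapmodulin also without Slam replicate 3 or Dia replicate 1, and that of Map60 without Slam replicate 2 (adjusted p up to 0.0946 for Mapmodulin, 0.095 for Jupiter and 0.0519 for Map60). Their log2 ratios with 1 library left out stayed at -0.70 to -0.95 for Mapmodulin, -0.89 to -1.10 for Jupiter and -1.02 to -1.30 for Map60. Between the 2 controls, Mapmodulin was at 524 CPM with the Dia antibody and 288 CPM in wild type. Its log2 ratio of 0.86 (SE 0.239) did not pass with edgeR but passed with DESeq2 (0.89, SE 0.244). Those of Jupiter and Map60 were 0.40 (SE 0.241) and -0.31 (SE 0.249) and did not pass. The part of the Dia antibody control in these lower ratios was not tested. LamC passed in all alternatives run. The other 2 lamina genes tested had log2 ratios below 0, at -0.65 (SE 0.197, adjusted p = 0.0549) for Lam, which encodes a B-type lamin, and -0.67 (SE 0.247, adjusted p = 0.101) for LBR, a receptor of lamin in the inner nuclear membrane, and did not pass. In all, 27 of the 31 genes tested did not pass, among them the linker Msp-300, with a log2 ratio of 2.00 (SE 0.811).

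By group of the list, the 7 plus-end genes tested had a median log2 ratio of -0.18 and the 4 genes of minus ends and the spindle -0.51. The 6 listed under depolymerising kinesins and severing had -0.28, and the 5 listed under links to actin or nucleus had -0.10. The groups are headings of the list, and a gene's function need not match its heading. None of these 22 genes passed (adjusted p of 0.0572 or above from edgeR), although DESeq2 passed mars and feo as lower, and edgeR with the replicate number as a block passed mars, mud and Klp10A. The 5 lattice genes had a median of -0.79 and the 3 lamina genes -0.65. Before adjustment, 11 of the 31 listed genes had a p under 0.05 as lower and 2 as higher. The share of all genes at this unadjusted threshold was not computed, so these counts have nothing to be set against. The block raised the listed genes that passed as lower from 3 to 8, with Lam and LBR among them, while the share of all genes rose from 3.62% to 8.52%. It left LamC as the 1 that passed as higher. Over all 31 the median was -0.33, beside -0.03 for all genes. In the GFP-binder experiment 0 of 35 listed genes passed in either direction (edgeR, where 0 had an unadjusted p under 0.05 or passed in DESeq2), with a median of 0.14 beside 0.02 for all genes. Between the controls 0 of 31 passed with edgeR, with a median of 0.20 beside -0.02 for all genes. Of these, 6 had an unadjusted p under 0.05 (edgeR), all higher with the Dia antibody, again without a share of all genes. DESeq2 passed 3 of them as higher, with Mapmodulin among them, and 3.31% of all genes.

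**Figure D4:**
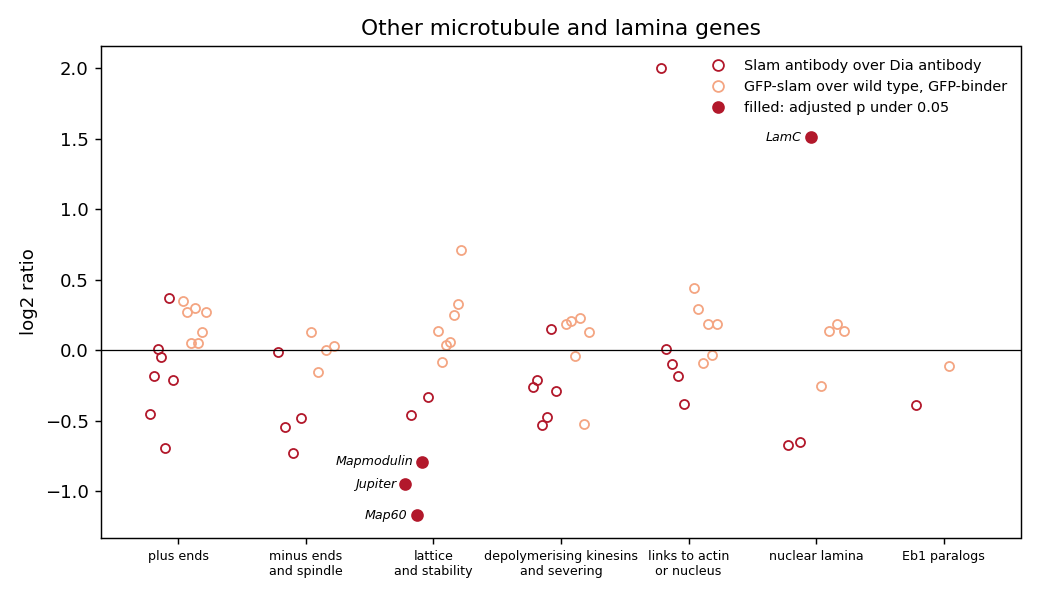
Log2 ratio of each tested gene of the microtubule and lamina list, by group, for Slam over Dia antibody (31 genes) and GFP-slam over wild type (35 genes), with filled points for genes that passed edgeR's test. LamC at 1.51 and Mapmodulin, Jupiter and Map60 at -0.79, -0.95 and -1.17 are the 4 filled points, and all lie in the antibody experiment.

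The members' profiles over the 12 libraries, as log2 CPM centred in each experiment, were compared as a description, since libraries and depth are shared by all genes. The centring leaves in the profiles the differences between groups with which the members were chosen. pigs and Patronin had a Pearson correlation of 0.91, pigs and futsch 0.86, shot and futsch 0.79 and Patronin and shot 0.78. Eb1 ran against them, at -0.47 with pigs and -0.65 with shot, and kuk was at -0.50 with pigs and -0.05 with shot. The transcripts most like pigs were those of CG31612 (0.986) and GCC185 (0.979), whose human namesake is a Golgi coiled-coil protein. For Patronin they were glu (0.975), a condensin subunit, and lilli (0.973), a nuclear regulator of transcription. For shot they were kst (0.965), which encodes the heavy beta-spectrin, and l(3)psg2 (0.954).

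For futsch the transcripts most alike were LamC (0.951) and CG43102 (0.926). For msps they were Sara (0.981), an endosomal adaptor of TGF-beta signalling, and fs(1)M3 (0.957), and for Eb1 Parp (0.924) and exd (0.913). kuk was most like cact (0.965), which encodes the inhibitor of Dorsal, and Prosbeta7 (0.955), a proteasome subunit. In the antibody experiment, the partners of pigs and Patronin had log2 ratios of 1.86 for CG31612, 2.89 for GCC185, 1.80 for glu and 2.90 for lilli. With GFP-slam the same 4 had 0.19, 0.08, 0.26 and 0.08. A gene found by its likeness to a member shares the ratios of that member by construction, so these values are no separate result.

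The 4 transcripts with a log2 ratio above 1 with the Slam antibody come from the 4 genes with the longest genomic spans of the 7, at 16.8 to 77.9 kb, while Eb1, msps and kuk span 7.07, 9.88 and 4.54 kb. msps, at 9.88 kb, falls in the same bin of longest spans as these 4, which holds 8.16 to 396 kb. When the 7207 genes matched to a span were split by it into 5 bins of about equal size, the median log2 ratio was -0.04, -0.05, -0.03, -0.04 and 0.01 from the shortest bin to the longest. The shares that passed as higher were 9.92%, 5.69%, 6.45%, 6.18% and 5.83%. The part of span in the members' ratios was not tested.

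The library kit does not mark strand, so reads of overlapping genes cannot be told apart. The genes that overlap pigs, CG14443 and lncRNA:CR44817, had at most 13 counts in any library in which they were matched. CG4866 overlaps Patronin and reached 45.5 CPM in the antibody experiment, with a log2 ratio of -0.47 that did not pass. CG3420 overlaps Eb1 and reached 45.2 CPM, with a log2 ratio of -0.67 that did not pass. The genes that overlap msps and futsch, CG10185 and Gr2a, had at most 32 and 2 counts in any library in which they were matched.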

How the data were processed

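The authors deposited raw counts per gene for each library, and those counts were used as deposited. The tools in their processing notes are STAR 2.5.0, DESeq2, bcl2fastq 2.17.1.14 and FastQC 0.11.4, with no roles. The genome build, strand setting and counting tool were not given in the sources used here. A deposited table with the authors' own fold changes and adjusted p-values was used only for the gene coordinates it holds, and 1648 of 1649 of its matched genes share a start or end with Release 6 of the RefSeq annotation.

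Groups were compared with edgeR 4.0.16 (R 4.3.3), using robust quasi-likelihood fits on all genes, TMM factors and Benjamini-Hochberg adjustment over all genes kept, with a threshold of 0.05. Genes with a mean normalized count under 50 were left out, or under 10 in the GFP-binder experiment. The groups follow the study's methods. The study's cutoffs for weakly expressed genes, of the same size, were read here as minima of this mean, which is a reading of its methods. Log2 CPM used a prior count of 2. DESeq2 1.42.0, other scalings and filters, the replicate number as a block, and each library left out in turn were tried as alternatives. The scripts were tested on simulated data.

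The replicate numbers come from the labels. Deviations from the group means correlated at 0.254, 0.391 and 0.151 between same-numbered Slam and Dia antibody libraries. All were above 0.1, so the numbers were read as pairs there. Slam replicate 3 nevertheless correlated at 0.278 with Dia replicate 4, and Slam replicate 1 at 0.115 with Dia replicate 3. The values thus do not single out the same-numbered libraries. The main fits left the number out, and fits with it as a block are given as alternatives. Replicates differed by more than sampling noise (chi-square per degree of freedom 54.6 to 360).

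The named genes were the 7 members, slam and dia, up to 4 listed microtubule genes with the lowest adjusted p per fit, and the 2 genes most alike for each member. elav, Syt1, nSyb, Msp-300, Lam, LBR, mars, feo, mud and Klp10A were named after their values were seen. The members and gene lists were chosen with earlier results of these data known.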

Additional observations from a re-analysis of the deposited data

Results flagged for a closer look

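The ratio of pigs differed between the experiments, by 3.60 (SE 0.546) on the log2 scale in the interaction term over all 12 libraries. It was 3.93 for Slam over Dia antibody and 0.34 for GFP-slam over wild type. The levels with the Slam antibody, 187 to 574 CPM, were above those of all other 9 libraries, which ran from 15.9 to 32.2 CPM. These levels were scaled within each experiment. pigs was chosen with both ratios known, so the difference is a description.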

How the results depend on the processing

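pigs and Patronin passed as higher with the Slam antibody under all alternatives, at log2 ratios of 3.46 to 4.24 and 1.29 to 2.16. With the replicate block, 1 of the 7 transcripts, kuk (-0.62, SE 0.186), passed as lower in place of 0, while all genes passed as lower went from 270 to 636. In the interaction term, 2 of the 7 passed as higher in place of 1 with DESeq2, where all genes went from 196 to 429, 2 with the replicate block, where they went to 185, and 1 to 2 with 1 library left out in turn. The blocked fit changed no other call of the 7 beyond those given for futsch. The 3 listed microtubule genes lower with the Slam antibody became 6 with total counts, 6 with DESeq2, 8 with the block, and 0 to 6 with 1 library left out. All genes lower moved the same way, from 270 to 416, 494, 636, 24 without Slam replicate 2 (0 listed) and 445 without Dia replicate 4 (6 listed). Listed genes higher in the Dia antibody control were 3 with DESeq2 in place of 0, and 1 with total counts, no minimum count, the block or the fit of all 12 libraries, and 0 to 1 with 1 library left out (1 without Dia replicate 4). All genes higher in that control went from 136 to 227 with DESeq2.

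Of 378 log2 values of the 7 transcripts under alternatives, 18 had the opposite sign, none of a value that passed. In the GFP-binder experiment the replicate block gave -0.09 for shot, 0.09 for Eb1 and -0.26 for futsch. With 1 library left out there, the ranges were -0.37 to 0.56 for Patronin, -0.13 to 0.32 for shot, -0.36 to 0.14 for Eb1, -0.28 to 0.28 for kuk and -0.41 to 0.57 for futsch. msps ranged from -0.04 (without Slam replicate 1) to 0.52 between the antibodies and from -0.13 to 0.42 in the interaction term. Eb1 ranged from -0.32 to 0.07 in the interaction term, and kuk from -0.31 to 0.02 between the controls. The causes were not tested. In the GFP-binder experiment the numbers were not read as pairs, although the same-numbered correlations of 0.191 and 0.208 were above 0.1 there too. Between the controls (-0.209 to -0.009) they were not read as pairs either. The replicate block passed 0 of the members in both comparisons. Levels per length were not run, since no exon lengths were used here. Depth limits futsch most, with 3 counts in Dia replicate 3.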
